A study of Mus musculus with 17 samples.

Results

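*Has1*, *Has2*, *Hyal1*, *Hyal2*, *Cemip*, *Vcan*, *Cd44*, *Tnfaip6* and *Ptx3*, which make, break down, bind or cross-link the hyaluronan and versican matrix, were followed in cardiac fibroblasts (CFs) during the first 6 days after myocardial infarction (MI). The members were chosen by name as the rows of the count table whose Ensembl identifier maps to these symbols, and they are 9 of 31053 genes listed. Each of the 9 was matched and passed the filter on low counts. The 17 libraries came from hearts of 8 to 10 week old C57BL/6 mice of the genotype Collagen1a1-GFP+, in which GFP is driven by a *Col1a1* promoter, and every library is from an infarcted heart after ligation of the left anterior descending coronary artery. GFP+/CD31-/CD45- cells were sorted, which leaves out endothelial cells and leukocytes, and there were 3 libraries at 1, 2, 4 and 6 days post-infarction (dpi), 4 at 3 dpi and 1 at 5 dpi. No uninjured heart is among them, so each comparison is between days of injury. Sorting on the reporter keeps cells that use the *Col1a1* promoter, and the labels do not say whether the libraries of a day came from separate mice, so that p-values measure the spread between these libraries.

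Hyaluronan is a long, unbranched sugar polymer that synthases of the Has family build at the plasma membrane from nucleotide sugars and push out of the cell. It is bound by versican, a large chondroitin sulfate proteoglycan of provisional matrices, and by the cell surface receptor CD44. TSG-6, the product of *Tnfaip6*, moves heavy chains of inter-alpha-inhibitor onto hyaluronan, and the pentraxin PTX3 joins such chains, which stabilises the cable-like matrix of inflamed tissue. Hyaluronidases and CEMIP cut the polymer into shorter pieces. In the healing heart a hyaluronan-rich matrix is known to precede the collagen scar.

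The labelled cell type was checked first. The 6 fibroblast markers (*Col1a1*, *Col1a2*, *Col3a1*, *Dcn*, *Pdgfra* and *Tcf21*) had counts in every library, with a summed level of 11700 to 37700 CPM (counts scaled to a common library total). The leukocyte gene *Ptprc*, which encodes CD45, was at 0 in 12 libraries and had at most 37 counts elsewhere, but of the 9 leukocyte markers *Lyz2* (17 to 1428 counts), *Csf1r* (31 to 405) and *Cd68* (27 to 160) had counts in every library. The leukocyte markers summed to 8.67 to 183 CPM and were highest at 3 dpi. *Pecam1*, which encodes CD31, had 7 to 241 counts. Total counts ranged from 8021815 to 22029938 per library. Over all genes, 3 dpi replicate 2 stood apart from its day. The chi-square of its counts, divided by the degrees of freedom, was 164 to 218 against the other libraries and 23.3 to 36.7 among those. So did 4 dpi replicate 3, with 101 to 127 against 22.3 between the other libraries of its day. At 6 dpi, replicate 3 had 91.7 to 116 against 50.1 between the other libraries, and fits without it are given below. Without 3 dpi replicate 2, 5 members and 3466 of 13975 genes passed the test over the whole time course, and 4 members and 751 genes at 6 against 4 dpi. Without 4 dpi replicate 3 they were 6 members and 2378 of 13988 genes, and 4 members and 223 genes. All libraries gave 5 members and 2099 of 14030 genes, and 2 members and 72 genes. In 10 libraries the Y-linked genes had more counts than *Xist*, among them all libraries of 2, 3 and 5 dpi. In the other 7 *Xist* had more, among them all of 4 and 6 dpi. Day and this sex-linked pattern thus cannot be told apart between 3 and 4 dpi, while 4 and 6 dpi share it. At 1 dpi, replicate 1 had more *Xist* counts and replicates 2 and 3 more Y-linked counts. The pattern therefore also differed in part between 1 and 6 dpi, and between 3 to 5 dpi and 6 dpi. Its part in those comparisons was not tested. The 3 dpi libraries were named by another scheme than the rest.

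Promoters are shown for *Has1*, *Tnfaip6* and *Ptx3*, which were lower at 6 than at 1 dpi, and for *Cemip*, which was higher. *Cd44* was also lower at 6 than at 1 dpi, and its promoter is not shown. The RefSeq promoter table (build GRCm38.p6) held 8 of the 9 members, all but *Has2*, and 4 motifs were searched on both strands of the 250 bases before each start: the TATA box (TATAAA), the AP-1 motif (TGANTCA), the cyclic AMP response element (CRE, TGACGTCA) and the NF-kappaB consensus. Sequences run 5′ to 3′ on the gene's strand and stop where an annotated exon begins, and capitals mark a motif match. Distances count from the start in the RefSeq table. For *Has1* and *Tnfaip6* an annotated exon begins before that start, so that 233 and 146 of the 250 bases are printed. Their motifs thus lie closer to the end of the printed sequence than to the start.
*Has1*, chr17:17855206-17855438, minus strand: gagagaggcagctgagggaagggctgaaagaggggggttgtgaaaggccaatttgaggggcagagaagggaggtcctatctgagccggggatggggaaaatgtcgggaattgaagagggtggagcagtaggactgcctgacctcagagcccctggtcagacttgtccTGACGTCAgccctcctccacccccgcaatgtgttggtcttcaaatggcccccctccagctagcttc
*Tnfaip6*, chr2:52037863-52038008, plus strand: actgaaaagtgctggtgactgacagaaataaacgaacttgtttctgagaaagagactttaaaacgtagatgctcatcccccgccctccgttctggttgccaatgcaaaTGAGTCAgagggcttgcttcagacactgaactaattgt
*Cemip*, chr7:84086506-84086755, minus strand: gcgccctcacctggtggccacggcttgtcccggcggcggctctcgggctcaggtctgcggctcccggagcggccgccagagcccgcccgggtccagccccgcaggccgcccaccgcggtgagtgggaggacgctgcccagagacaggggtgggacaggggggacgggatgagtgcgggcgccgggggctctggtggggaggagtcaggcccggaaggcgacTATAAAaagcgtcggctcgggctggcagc
*Ptx3*, chr3:66219637-66219886, plus strand: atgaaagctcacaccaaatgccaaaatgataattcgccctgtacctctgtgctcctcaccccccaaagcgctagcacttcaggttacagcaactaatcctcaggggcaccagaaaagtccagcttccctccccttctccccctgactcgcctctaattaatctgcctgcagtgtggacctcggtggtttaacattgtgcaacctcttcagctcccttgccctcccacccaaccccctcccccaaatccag
The *Has1* window held a CRE 83 to 76 bases before the start, a motif found in 1.55% of 32851 promoters of this length. The *Tnfaip6* window held an AP-1 motif 142 to 136 bases before the start, found in 6.75% of them, and the *Cemip* window a TATA box 29 to 24 bases before it, found in 12.4%. Of the promoters not shown, that of *Hyal2* matched the NF-kappaB consensus 238 to 229 bases before the start, as did 7.25% of all promoters. None of the 4 motifs was found in the windows of *Ptx3*, *Hyal1*, *Vcan* and *Cd44*.

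At the end of the time course *Has1*, *Has2*, *Cd44*, *Tnfaip6* and *Ptx3* were lower than at 1 dpi and *Cemip* was higher. *Hyal1*, *Hyal2* and *Vcan* did not pass the test. By the quasi-likelihood test of edgeR, with p-values adjusted over all genes by the Benjamini-Hochberg method, 5 of the 9 members passed the adjusted threshold of 0.05 over the whole time course (*Has1*, *Has2*, *Cemip*, *Cd44* and *Ptx3*), against 15.0% of the 14030 genes tested. Leaving out 1 library at a time gave 3 to 6 members and 1307 to 3466 genes, with 3 members when 6 dpi replicate 1 or replicate 2 was left out. Between 6 and 1 dpi, 6 members were called, 5 lower and 1 higher, while 5.21% of all genes were called lower and 6.91% higher. The median log2 fold change at 6 against 1 dpi was -1.45 over the members and 0.03 over all genes tested. In bulk samples, fewer cells of a type and less RNA per cell cannot be told apart.

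**Figure D1:**
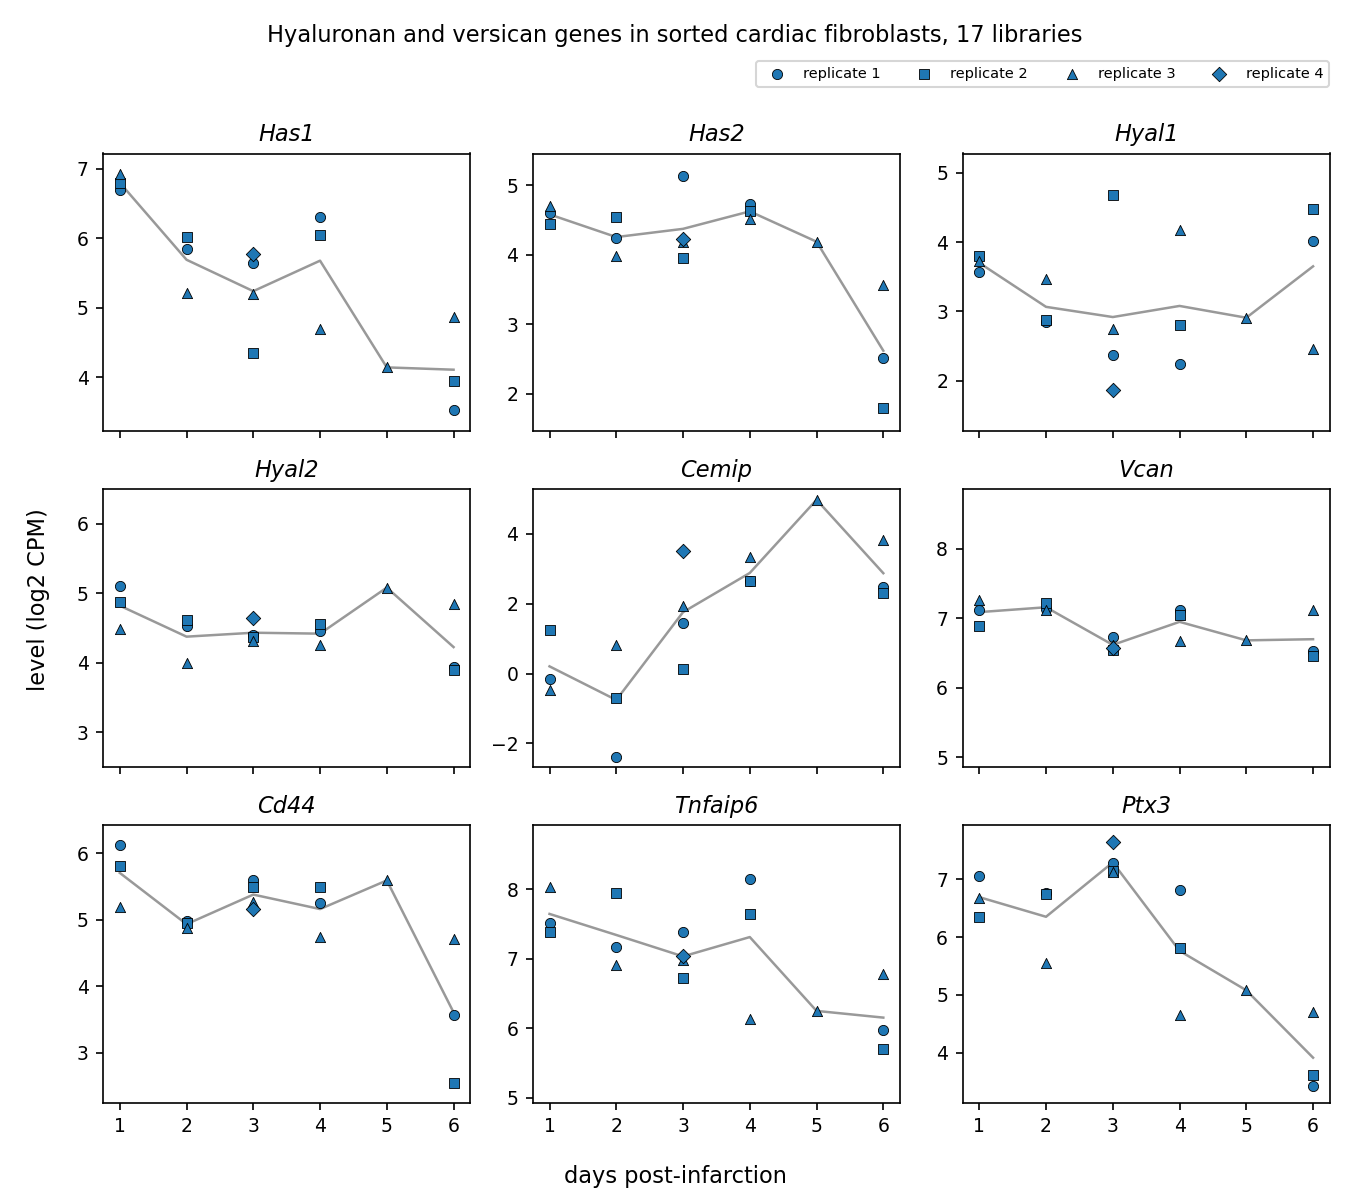
Level of each of the 9 genes (log2 CPM, y axis, drawn to its own range in each panel) by day post-infarction (x axis). Each point is 1 library, the shape gives the replicate number and the grey line joins the means of the days. *Has1*, *Has2*, *Cd44*, *Tnfaip6* and *Ptx3* have their lowest mean at 6 dpi, and *Cemip* is at its lowest at 2 dpi and highest in the 5 dpi library.

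*Has1* (ENSMUSG00000003665, chr17:17843323-17855205, minus strand) encodes a hyaluronan synthase with low basal expression in most tissues that responds to inflammatory signals. Normalized CPM was 103, 110 and 121 at 1 dpi, 57.0, 64.7 and 37.0 at 2 dpi, 49.8, 20.3, 36.4 and 54.3 at 3 dpi, 78.6, 65.5 and 25.6 at 4 dpi, 17.5 at 5 dpi and 11.4, 15.2 and 28.8 at 6 dpi. The 3 libraries of 1 dpi were above all others, and those of 2, 3 and 4 dpi overlapped. *Has1* fell from 1 to 6 dpi by 2.59 on the log2 scale (SE 0.42, adjusted p = 0.0006), a 6.04-fold change. In the 3 to 5 dpi window, which the study set as the transition of activated CFs, the mean of the days was below that of 1 and 2 dpi (log2 fold change -1.17, SE 0.30, adjusted p = 0.019). That call was lost when the single 5 dpi library was left out of the window (-0.69, SE 0.27, adjusted p = 0.15) and without 2 dpi replicate 2 (adjusted p = 0.05). It was kept among the 10 libraries in which Y-linked counts exceeded those of *Xist* (-1.56, SE 0.33, adjusted p = 0.017). That fit held no 4 dpi library, and in its window the single 5 dpi library weighed as much as all of 3 dpi. Of the differences in between, that from 1 to 2 dpi (-1.08, SE 0.40, adjusted p = 0.49) and that from 4 to 6 dpi (-1.62, SE 0.41, adjusted p = 0.063) did not pass. Since mesothelial cells also use *Has1*, 8 mesothelial markers were summed. They ranged from 91.2 to 301 CPM at 1 dpi, from 42.7 to 89.4 at 4 dpi and from 86.6 to 536 at 6 dpi, which overlapped between 1 and 6 dpi, and their part in the *Has1* levels was not tested.

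*Has2* (ENSMUSG00000022367, chr15:56665627-56694539, minus strand), the synthase that the embryonic heart needs to form its cushions, followed another course. It stood at 24.2, 21.7 and 25.8 normalized CPM at 1 dpi, 18.8, 23.1 and 15.8 at 2 dpi, 34.9, 15.3, 18.1 and 18.6 at 3 dpi, 26.4, 24.6 and 22.9 at 4 dpi and 18.1 at 5 dpi, and then at 5.55, 3.32 and 11.7 at 6 dpi. Neighbouring days overlapped from 1 to 5 dpi in the order of their means, and each 6 dpi library lay below every other library. *Has2* at 6 dpi was lower than at 1 dpi (log2 fold change -1.80, SE 0.37, adjusted p = 0.0042), and the 3 to 5 dpi window was higher than 6 dpi (1.64, SE 0.34, adjusted p = 0.0058). It was also lower at 6 than at 4 dpi (-1.84, SE 0.38, adjusted p = 0.041), a call lost in 8 of 16 fits that each left out 1 library. The window call was lost without 6 dpi replicate 2 (1.31, adjusted p = 0.054). Without 6 dpi replicate 3, the highest of its day, the change from 1 to 6 dpi was -2.42 (SE 0.37), that from 4 to 6 dpi -2.46 (SE 0.37) and the window minus 6 dpi 2.25 (SE 0.35). The *Has1* means of 1 and 2 dpi were 6.80 and 5.69 log2 CPM, while the *Has2* means of 1 and 4 dpi were 4.58 and 4.63. Whether the courses of the synthases differ was not tested.

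*Cemip* (ENSMUSG00000052353, chr7:83932857-84086502, minus strand) encodes a secreted, hyaluronan-binding protein needed for hyaluronan breakdown by skin fibroblasts. Its counts were low, from 1 to 302 per library. Normalized CPM was 0.759, 2.23 and 0.586 at 1 dpi, 0.0535, 0.478 and 1.62 at 2 dpi, 2.57, 0.966, 3.71 and 11.3 at 3 dpi, 6.17, 6.11 and 10.0 at 4 dpi, 31.4 at 5 dpi and 5.49, 4.86 and 14.0 at 6 dpi. The libraries of 4, 5 and 6 dpi were all above those of 1 and 2 dpi. *Cemip* rose in the window of 3 to 5 dpi against 1 and 2 dpi (log2 fold change 3.44, SE 0.60, adjusted p = 0.00096), a comparison in which 5.25% of all genes were called higher and 2.24% lower. The rise was kept without the 5 dpi library (2.63, SE 0.60, adjusted p = 0.01), and it was 4.13 without 2 dpi replicate 3. The change from 1 to 6 dpi was 2.70 (SE 0.82, adjusted p = 0.037), and it no longer passed without 6 dpi replicate 3 (2.05, adjusted p = 0.1), nor without 1 dpi replicate 1 or 3 or 6 dpi replicate 1 or 2 (adjusted p up to 0.13). Without 1 dpi replicate 2 it was 3.61. The step from 2 to 3 dpi (2.68, SE 0.82, adjusted p = 0.08) did not pass. *Has1* and *Cemip* were the only members called in the window comparison, *Has1* lower and *Cemip* higher.

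The lysosomal hyaluronidase gene *Hyal1* (ENSMUSG00000010051, chr9:107576927-107581710, plus strand) and *Hyal2* (ENSMUSG00000010047, chr9:107567945-107572779, plus strand), whose product is anchored at the cell surface, were not called in any comparison. *Hyal1* shares exon bases with *Hyal3* and *Naa80* on the same strand. Reads in these bases cannot be told apart by position, and whether they were counted for *Hyal1* is not stated. *Hyal1* ranged from 3.51 to 25.5 normalized CPM over the libraries of 3 dpi and from 5.38 to 22.1 at 6 dpi, against 11.8 to 13.8 at 1 dpi. *Hyal2* ranged from 14.7 to 34.2 normalized CPM over all 17 libraries, and its mean log2 CPM at 1 and 6 dpi was 4.82 (SD 0.31, n = 3) and 4.22 (SD 0.54, n = 3). All neighbouring days in the order of means overlapped for both genes. In the order of time, *Hyal1* at 2 dpi (7.07 to 10.9) lay below 1 dpi without overlap. That difference did not pass (log2 fold change -0.62, SE 0.61, adjusted p = 0.97). The single 5 dpi library of *Hyal2* (33.6) lay above those of 4 dpi (18.9 to 23.2) and 6 dpi (14.7 to 28.6).

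*Vcan* (ENSMUSG00000021614, chr13:89655312-89742509, minus strand) encodes versican, and counting of 3′ ends does not separate its splice forms. Levels ranged from 117 to 153 normalized CPM at 1 dpi, from 139 to 149 at 2 dpi, from 93.1 to 106 at 3 dpi and from 87.1 to 138 at 6 dpi. The 4 libraries of 3 dpi were below the 3 of 2 dpi without overlap, with a log2 fold change of -0.54 (SE 0.21, adjusted p = 0.17) that did not pass. At 3 dpi against 2 dpi 0 members were called by edgeR (3 at an unadjusted p under 0.05, 1 by DESeq2, which was *Cemip*), against 1.82% of all genes called higher and 1.12% lower. The mean level of *Vcan* moved between 7.16 log2 CPM at 2 dpi and 6.62 at 3 dpi, and the window against 1 and 2 dpi gave -0.37 (SE 0.16, adjusted p = 0.19).

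*Cd44* (ENSMUSG00000005087, chr2:102811141-102901665, minus strand) encodes the main cell surface receptor for hyaluronan. Normalized CPM was 69.5, 55.8 and 36.5 at 1 dpi, 31.3, 30.8 and 29.0 at 2 dpi, 47.9, 44.8, 38.3 and 35.7 at 3 dpi, 37.9, 44.8 and 26.6 at 4 dpi, 48.2 at 5 dpi and 11.7, 5.71 and 26.1 at 6 dpi. The 6 dpi libraries were the 3 lowest of the series. *Cd44* was lower at 6 than at 1 dpi (log2 fold change -1.89, SE 0.38, adjusted p = 0.0037) and higher in the window than at 6 dpi (1.53, SE 0.35, adjusted p = 0.0095). Without 6 dpi replicate 3 these values were -2.61 (SE 0.36) and 2.25 (SE 0.33). The window call was lost without 6 dpi replicate 1 or replicate 2, with an adjusted p of up to 0.067. At 2 against 1 dpi 0 members were called by edgeR (2 at an unadjusted p under 0.05, *Cd44* at -0.82 and *Has1*, and 0 by DESeq2), and 0.157% of all genes were called higher and 0.0214% lower. *Cd44* is also made by leukocytes, whose 9 markers summed to 40.5 to 183 CPM at 3 dpi, 10.0 to 32.2 at 1 dpi, 52.0 at 5 dpi and 14.9 to 22.8 at 6 dpi. The sum overlapped between 1 and 6 dpi, it did not overlap between 6 dpi and 3 or 5 dpi of the window, and its part in the *Cd44* levels was not tested.

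*Tnfaip6* (ENSMUSG00000053475, chr2:52038009-52056686, plus strand) encodes TSG-6. It stood at 182, 168 and 264 normalized CPM at 1 dpi, 144, 247 and 120 at 2 dpi, 167, 105, 127 and 132 at 3 dpi, 284, 201 and 70.2 at 4 dpi, 75.9 at 5 dpi and 63.1, 51.7 and 110 at 6 dpi. The libraries of 4 dpi ran from 70.2 to the highest value of the series. *Tnfaip6* was lower at 6 than at 1 dpi (log2 fold change -1.45, SE 0.41, adjusted p = 0.025), a call that was lost without 1 dpi replicate 1, 1 dpi replicate 3, 6 dpi replicate 1 or 6 dpi replicate 2, with an adjusted p of up to 0.12. It was not called over the whole time course (adjusted p = 0.08) or between 6 and 4 dpi (-1.31, SE 0.41, adjusted p = 0.1).

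*Ptx3* (ENSMUSG00000027832, chr3:66219910-66225805, plus strand) encodes a pentraxin of innate immunity. Normalized CPM was 133, 81.6 and 102 at 1 dpi, 108, 107 and 46.9 at 2 dpi, 155, 140, 139 and 200 at 3 dpi, 113, 56.2 and 25.0 at 4 dpi, 33.6 at 5 dpi and 10.7, 12.1 and 25.9 at 6 dpi. The 4 libraries of 3 dpi were above all other libraries. From there the means fell each day to 6 dpi, where *Ptx3* was 6.50-fold below 1 dpi (log2 fold change -2.70, SE 0.46, adjusted p = 0.00089) and 4.33-fold below the window (2.11 for the window minus 6 dpi, SE 0.42, adjusted p = 0.0045). Without the 3 dpi libraries the window gave 1.52 (SE 0.46, adjusted p = 0.058). The step from 3 to 4 dpi was -1.29 (SE 0.42, adjusted p = 0.1), and edgeR called 0 members there (1 at an unadjusted p under 0.05, and 1, *Ptx3*, by DESeq2), against 1.63% of all genes higher and 1.08% lower. The fall from 4 to 6 dpi was -2.0 (SE 0.45), with an adjusted p of 0.05 that lay just under the threshold before rounding and was lost in 13 of 16 fits that each left out 1 library, with a change of -1.33 without 4 dpi replicate 1. With *Has2*, it made 2 members called lower at 6 than at 4 dpi, against 0.278% of all genes lower and 0.235% higher.

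**Figure D2:**
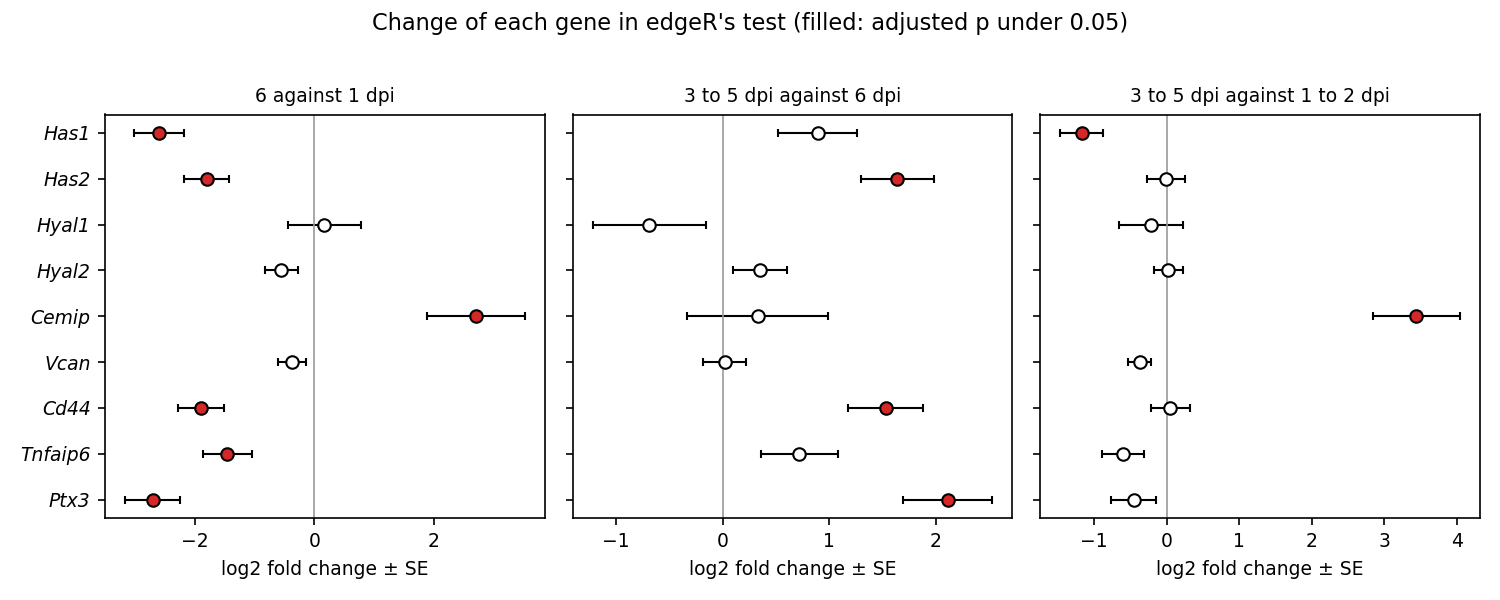
Log2 fold change of each gene with its standard error (x axis) in 3 comparisons, with genes on the y axis and points filled where the adjusted p was under 0.05. At 6 against 1 dpi, 5 genes lie left of 0 and *Cemip* right of it among the filled points, and at 3 to 5 dpi against 6 dpi the 3 filled points, *Has2*, *Cd44* and *Ptx3*, are right of 0.

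In the window against 6 dpi, 3 members were called higher and none lower, while 5.29% of all genes were called higher and 6.25% lower. With 6 dpi replicate 2 left out, 1 member and 299 of 13964 genes were called. The median log2 fold change was 0.72 over the members and 0.01 over all genes. At 6 dpi, replicate 3 stood apart from its day for most members, with *Has1* at 4.86 log2 CPM against 3.52 and 3.94, *Has2* at 3.56 against 2.51 and 1.79, and *Cd44* at 4.71 against 3.57 and 2.55. Without it, 5 members and 2606 of 13962 genes were called in the window against 6 dpi, where all libraries gave 3 and 1619. At 6 against 4 dpi, 5 members and 1402 genes were then called, where all libraries gave 2 and 72. Calls thus rose over all genes, and not in the members alone. Summed cardiomyocyte markers were higher at 6 dpi (66.8 to 130 CPM) than at 1 dpi (12.6 to 27.6), and mural markers too (117 to 141 against 39.0 to 78.4), and their part in the 6 dpi levels was not tested.

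The other genes of hyaluronan and versican biology were followed from a list of 62, of which 48 were tested. Of these, 13 were called at 6 against 1 dpi, 5 higher and 8 lower, where 6.91% of all genes were called higher and 5.21% lower. Of the 7 tested genes for enzymes that make the nucleotide sugar precursors, 5 were lower at 6 than at 1 dpi and 0 higher, with a median log2 fold change of -1.07. *Ugp2* (-0.21, adjusted p = 0.71) and *Gfpt2* (-0.74, adjusted p = 0.23) did not pass. The genes called were *Ugdh* (-1.07, SE 0.24, adjusted p = 0.0072), which makes UDP-glucuronic acid, and *Gfpt1* (-0.90, SE 0.23), *Gnpnat1* (-1.07, SE 0.28), *Pgm3* (-1.10, SE 0.32) and *Uap1* (-1.21, SE 0.29), which act in the hexosamine route to UDP-N-acetylglucosamine. In the window against 6 dpi, *Gfpt1*, *Gnpnat1* and *Pgm3* were higher, by 1.18 (SE 0.21), 0.86 (SE 0.25) and 1.60 (SE 0.29). *Ugp2*, which supplies the glucose nucleotide upstream of *Ugdh*, was higher at 4 than at 3 dpi (1.14, SE 0.29, adjusted p = 0.043). The *Ugdh* and *Uap1* levels were lower in the window than at 1 and 2 dpi (-0.62, SE 0.17, and -0.92, SE 0.21). These sugars are also used by other glycan pathways, and the list was chosen with earlier results of these data known.

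Among genes of breakdown, *Hexa*, which encodes a subunit of the lysosomal enzyme that trims hyaluronan fragments, was higher at 6 than at 1 dpi (log2 fold change 1.56, SE 0.33, adjusted p = 0.0046). *Cemip2*, a transmembrane relative of *Cemip*, was higher in the window than at 1 and 2 dpi (1.32, SE 0.32, adjusted p = 0.012). *Acan*, encoding the cartilage proteoglycan aggrecan, had 0, 2 and 10 counts at 1 dpi and 112, 101 and 174 at 6 dpi, and was called higher (5.45, SE 1.14, adjusted p = 0.0043). The heavy chain relative *Itih5* was also higher (1.75, SE 0.40, adjusted p = 0.0076), and *Itih4* was called over the whole time course (adjusted p = 0.009) and in none of the comparisons of days. *Csgalnact1*, which starts chondroitin sulfate chains, was lower at 6 than at 1 dpi (-2.06, SE 0.31, adjusted p = 0.00033), as was the chondroitin sulfotransferase gene *Chst11* (-1.33, SE 0.32, adjusted p = 0.011), while *Chpf*, which lengthens the chains, was higher (1.43, SE 0.28, adjusted p = 0.0025). The hyaluronan receptor and spindle gene *Hmmr* was called higher at 2 than at 1 dpi (4.12, SE 0.61, adjusted p = 0.0035). Its course ran with the summed proliferation markers, which went from 10.1 to 22.6 CPM at 1 dpi to 48.3 to 80.8 at 2 dpi and 152 to 315 at 3 dpi, and their part in it was not tested. Of the 6 genes for versican-cleaving proteases, *Adamts20* and *Adamts5* were called over the whole time course (adjusted p = 0.043 and 0.031). Over the whole time course 15 of the 48 tested pathway genes were called, against 15.0% of all genes. *Adamts20*, which had at most 55 counts, was higher in the window than at 1 and 2 dpi (2.96, SE 0.80, adjusted p = 0.026). *Adamts1* was lower at 6 than at 1 dpi (-0.95, SE 0.29, adjusted p = 0.04), and it was not called over the whole time course (adjusted p = 0.15).

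**Figure D3:**
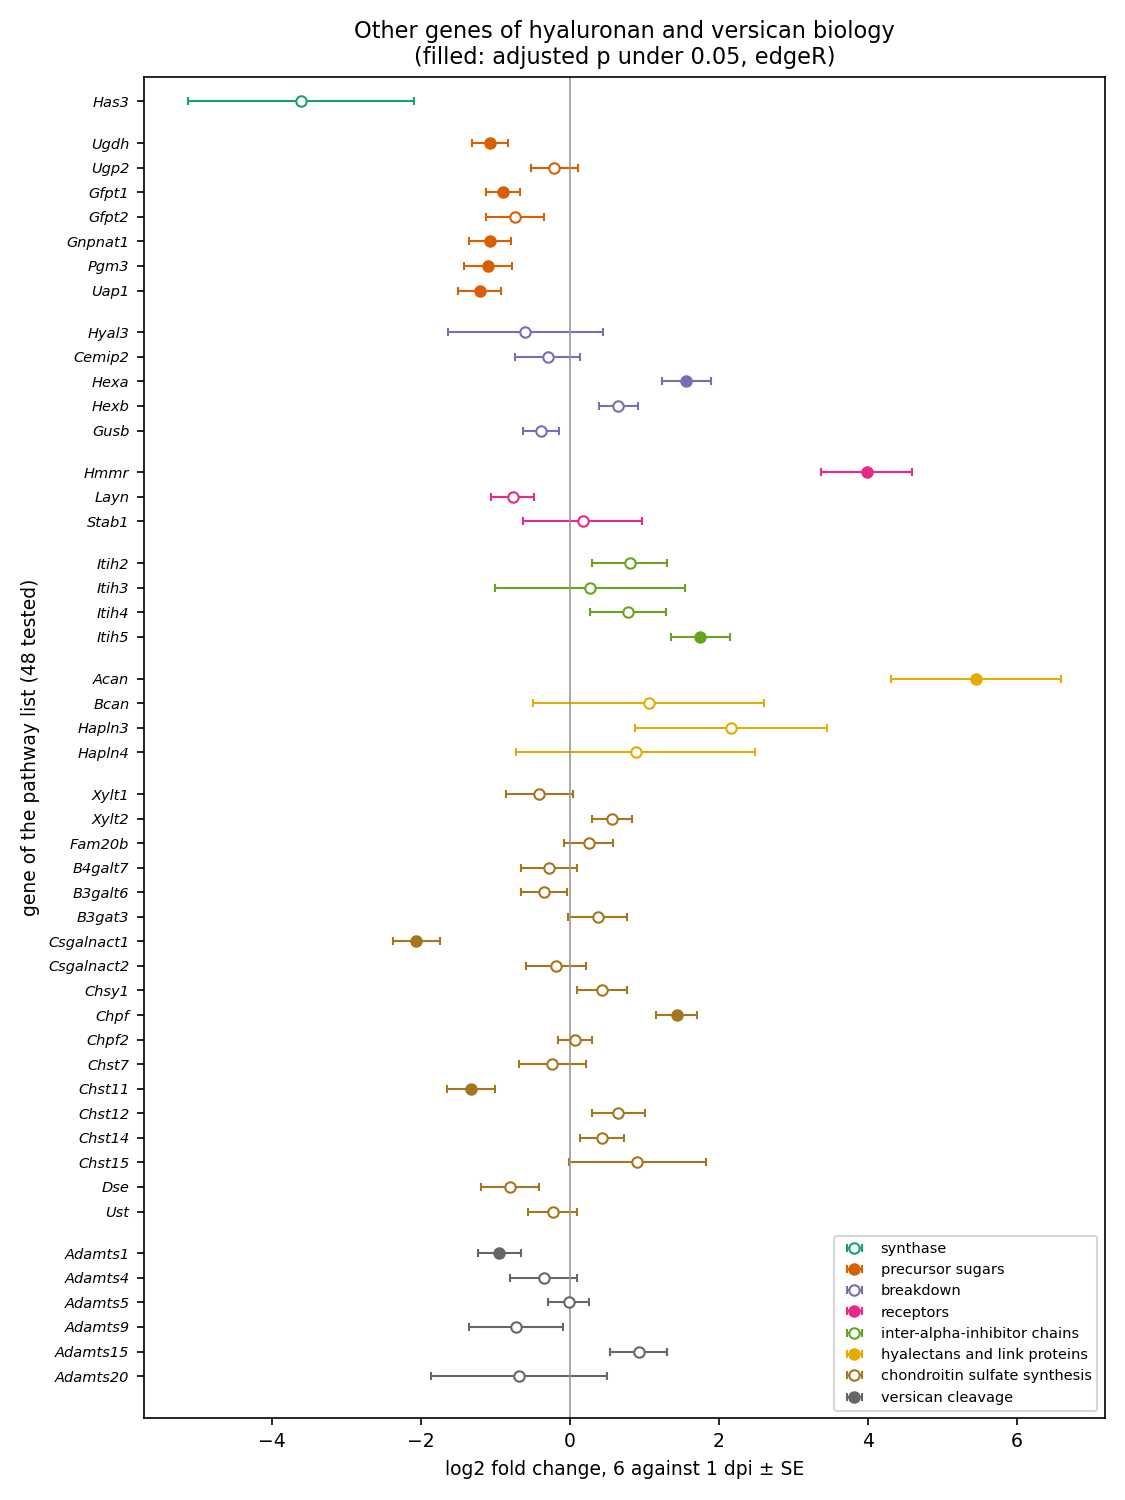
Log2 fold change at 6 against 1 dpi with its standard error (x axis) for the 48 tested genes of the pathway list (y axis), coloured by role, with points filled where the adjusted p was under 0.05. Among the precursor sugar genes 5 filled points lie left of 0, and the 5 filled points right of 0 are *Hexa*, *Hmmr*, *Itih5*, *Acan* and *Chpf*.

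As a description, the members were compared by the Pearson correlation of their log2 CPM over the 17 libraries, which share depth and day. *Has1* and *Tnfaip6* had r = 0.9, *Has2* and *Cd44* r = 0.88, and *Cemip* had negative r with *Has1* (-0.46) and *Vcan* (-0.47). Among 8911 genes with a mean of at least 100 counts, those most like *Has1* were *Rdh10* (r = 0.93) and *B4galt5* (0.91), and those most like *Has2* were *Pi4k2b* (0.94) and *Npm1* (0.94). *Cd44* was most like *Amd1* and *Psmd12* (0.94 each), *Tnfaip6* like *Birc3* (0.92) and *Trib1* (0.89), and *Ptx3* like *Cxcl5* and *Cpsf6* (0.93 each). *Vcan* was most like *Ahcyl1* and *Tmem62* (0.93 each), *Cemip* like *Cd200* (0.84) and *Cx3cl1* (0.83), *Hyal1* like *Tomm40l* (0.89) and *Kat2a* (0.87), and *Hyal2* like *Ublcp1* (0.78) and *Cfap43* (0.77).

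Within days, libraries of high *Hyal1* held low levels of *Has2*, *Vcan* and *Tnfaip6*, a pattern noticed after the values were seen. On each of the 5 days with 3 or more libraries, the library with the highest *Hyal1* was the lowest of its day in *Has2*, *Vcan* and *Tnfaip6*. It was the lowest in *Has1*, *Hyal2*, *Cd44* and *Ptx3* on 3 of the 5 days, while in *Cemip* it was the lowest on 2 days and the highest on the other 3. These libraries were 1 dpi replicate 2, 2 dpi replicate 3, 3 dpi replicate 2, 4 dpi replicate 3 and 6 dpi replicate 2. Of these, 3 dpi replicate 2 and 4 dpi replicate 3 also stood apart from their day over all genes, and their part in the pattern was not tested. How many of all genes were lowest in the same 5 libraries was not counted. The pattern can therefore not be called particular to these members. At 1 dpi the *Hyal1* values lay close together, at 13.8 normalized CPM against 13.1 and 11.8. Some of the lowest places were also near ties. *Vcan* at 2 dpi was 139 in replicate 3 against 140 and 149, and *Has2* at 4 dpi was 22.9 in replicate 3 against 26.4 and 24.6. At 4 dpi replicate 3 had 17.9 normalized CPM of *Hyal1* against 4.61 and 6.86, and 70.2 of *Tnfaip6* against 284 and 201. Mesothelial markers were the highest of their day in 4 of these 5 libraries, with 301, 208, 89.4 and 536 CPM at 1, 3, 4 and 6 dpi, and their part in the pattern was not tested.

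**Figure D4:**
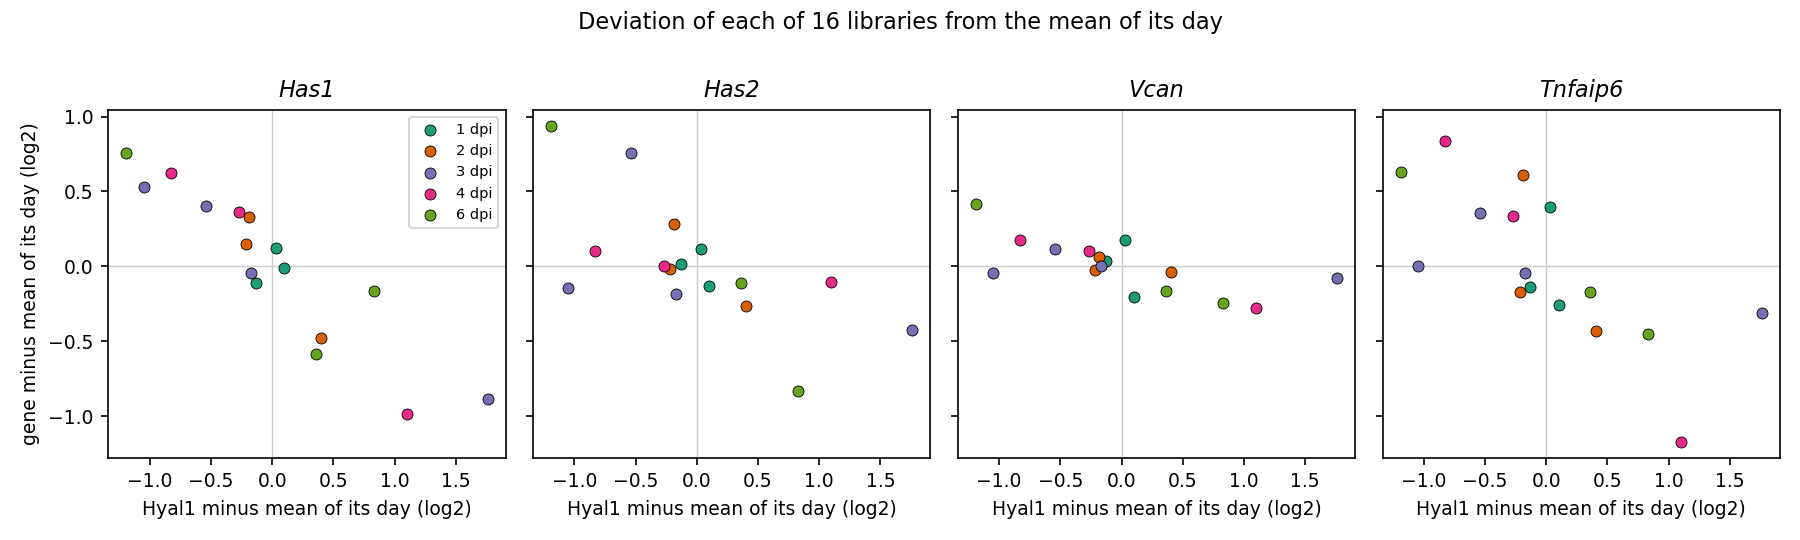
Difference of each of 16 libraries from the mean of its day (log2), with *Hyal1* on the x axis and *Has1*, *Has2*, *Vcan* or *Tnfaip6* on the y axis. Each point is 1 library, coloured by day, and the libraries with the highest *Hyal1* of a day lie below 0 on the y axis for *Has2*, *Vcan* and *Tnfaip6*.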

How the data were processed

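Counts per gene were analysed for 17 libraries of sorted CFs from infarcted mouse hearts. The authors used bcl2fastq (1.2.4) for demultiplexing, STAR for alignment to mm10 and featureCounts for counting on an Ensembl annotation of GRCm38, and the deposited values are raw counts without normalization. Oligo-dT priming and linear amplification of poly-A RNA place the reads at 3′ ends. No collapsing of PCR copies is named, and counting error is then a lower limit.

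The members and lists were chosen with earlier results of these data known. The filter kept 14030 genes that reached 10 counts in 3 or more libraries. The quasi-likelihood F-test of edgeR (4.0.16, R 4.3.3) was run on TMM-scaled counts of all 17 libraries, with day as the sole factor, a Benjamini-Hochberg adjustment over all genes tested and a threshold of 0.05. Comparisons were the whole time course, 2 against 1, 3 against 2, 4 against 3, 6 against 4 and 6 against 1 dpi, and the window of 3, 4 and 5 dpi against 1 and 2 dpi and against 6 dpi. The single 5 dpi library, replicate 3 in its title and 1 in its description, entered the window only. Levels are CPM or log2 CPM (prior count 2) of TMM-normalized library sizes. A count of 0 allows up to 3 counts, or 0.136 to 0.374 CPM. Named genes are the 9 members, pathway genes called over the whole time course, and for each member the 2 genes most correlated with it. Pathway genes not called over the whole time course (*Gnpnat1*, *Ugp2*, *Gfpt2* and *Adamts1*) were named after their values were seen. Positions are from GENCODE vM21 on GRCm38. Alternatives were DESeq2 (1.42.0), its size factors, upper-quartile normalization, other count filters, the replicate block, fits on the days compared, windows without 3 or 5 dpi, a fit on the 10 libraries in which Y-linked counts exceeded those of *Xist*, and leaving out 1 of 16 libraries at a time.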

Additional observations from a re-analysis of the deposited data

Results flagged for a closer look

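At 3 dpi, where 4 libraries allow a search for single outlying values, the gap of the farthest library to its neighbour was divided by the range of the day for 28 measures of members and pathway genes (Dixon's ratio), and 1 exceeded the critical value. The level of *Adamts5*, which encodes a protease that cleaves versican, was 7.78 log2 CPM in 3 dpi replicate 3 against 7.02 to 7.15 in the other libraries of that day, a ratio of 0.834. Chance flags about 1 in 20 such groups.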

How the results depend on the processing

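No result reversed under the alternatives run. At 6 against 1 dpi 6 members were called in 6 of 7 alternatives and 5 with a filter of 10 counts in each library, which left *Cemip* untested. DESeq2 in place of edgeR called 3757 genes over the whole time course, 104 at 2 against 1 dpi, 1042 and 1 member at 3 against 2 dpi, 879 and 1 member at 4 against 3 dpi, and 807 and 5 members at 6 against 4 dpi. Testing every gene with at least 1 count gave 3729 genes over the whole time course, 153 and 1 member at 2 against 1 dpi, 980 and 2 members at 3 against 2 dpi, 866 and 1 member at 4 against 3 dpi, and 882 and 5 members at 6 against 4 dpi. A filter of 10 counts in each library gave 10 genes at 2 against 1 dpi, 140 at 6 against 4 dpi and 1 member (*Has1*) in the window against 1 to 2 dpi, since *Cemip*, with as few as 1 count, was not tested. In that comparison the window without 5 dpi gave 1 member too, *Cemip*. Without these changes the counts were 2099, 25, 412, 380 and 72 genes, from the whole time course to 6 against 4 dpi. With the replicate block, 174 genes were called at 3 against 2 dpi, 243 at 4 against 3 dpi, and 28 genes and 0 members at 6 against 4 dpi. There *Has2* (-1.89, adjusted p = 0.057) and *Ptx3* (-1.83, adjusted p = 0.08) lost their calls, 4 members in place of 5 passed over the whole time course, and no other log2 fold change of a member changed its call under the block. Libraries of the same number did not deviate together on average (mean r 0.011 over 30 pairs, against -0.005 over 72 pairs of different numbers). This average cannot show whether some libraries of the same number shared a batch or pool, which was not tested. Fits on the days compared gave 63 genes and 1 member at 2 against 1 dpi, 252 genes at 3 against 2 dpi, 125 at 4 against 3 dpi, 14 genes and 0 members at 6 against 4 dpi, and 926 genes in the window against 6 dpi. DESeq2 size factors and upper-quartile normalization each gave 1 member at 6 against 4 dpi. The window without 3 dpi gave 779 genes against 6 dpi, against 1619 with them. The causes were not tested.

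Leaving out 1 library at a time gave 3 to 6 members and 1307 to 3466 genes over the whole time course, 0 to 0 members and 13 to 32 genes at 2 against 1 dpi, 0 to 1 and 46 to 734 at 3 against 2 dpi, 0 to 1 and 126 to 722 at 4 against 3 dpi, 0 to 5 and 3 to 1402 at 6 against 4 dpi, 4 to 6 and 763 to 2577 at 6 against 1 dpi, 1 to 2 and 780 to 1601 in the window against 1 to 2 dpi, and 1 to 5 and 299 to 2937 in the window against 6 dpi. Of 384 such log2 fold changes, from the 24 comparisons of a member with an unadjusted p under 0.05, 339 kept their side of the threshold, 34 lost a call and 11 gained it. Calls of the pathway genes under these alternatives are not reported here. The day of the highest mean moved for *Has2* with raw library sizes (to 1 dpi) and for *Hyal2* and *Cemip* without the 5 dpi library (to 1 and 4 dpi).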
